A study of Homo sapiens with 12 samples.

Results

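The RNA recovered on streptavidin from cells carrying Connexin43-EGFP-APEX2 was set against the total RNA of the same extract, gene by gene. Genes were taken whose mean over both libraries was at least 1 RPKM (reads scaled to gene length and library size), which held for 4253 of 57773 genes. The method, Proximity-CLIP, was run in HEK293 T-REx, a human embryonic kidney cell line built for inducible transgenes. All groups had 4-thiouridine, a photoreactive uridine analogue, with doxycycline for 16 h, then biotin-phenol for 30 min, hydrogen peroxide and ultraviolet light. The stable lines carried Connexin43-EGFP-APEX2, V5-APEX2-NES (nuclear export signal) or V5-H2B-APEX2 (histone H2B), and a T-REx line without APEX2 was the control. Each of the 4 lines gave 1 library of total RNA, 1 of bound RNA and 1 of protected footprints, so the 12 samples fall in 12 groups of 1. No difference below has a replicate check, and no p-value is given.

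APEX2 is an engineered peroxidase that, given biotin-phenol and peroxide, attaches biotin to proteins close to it. Streptavidin then collects those proteins together with RNA crosslinked to them. Connexin43, the product of GJA1, is made on membrane-bound ribosomes, moves through the endoplasmic reticulum (ER) and Golgi to the plasma membrane, and forms gap junctions, channels that join neighbouring cells. The enzyme is therefore present along that route as well as at cell contacts. In all 4 lines the total libraries were made after removal of ribosomal RNA and the bound libraries without it, per the labels' protocols, so for rRNA the capture and this step cannot be told apart.

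Start sites of ribosomal protein mRNAs from the low end and of translation factor mRNAs above the median gene are printed because ribosomal protein and translation factor mRNAs are known for a terminal oligopyrimidine tract, a C followed by an unbroken run of C and T at the start of the transcript. Each window runs 5′ to 3′ from 10 bases before the listed start to 20 bases after it, from RefSeq on GRCh38.p14, and capitals mark the C and the run that follows it at the listed start. The first 4 are ribosomal protein mRNAs and the last 3 translation factors, of which EIF2S3, at 0.34, was within 2-fold.
RPL39, chrX:119791611-119791640, minus strand: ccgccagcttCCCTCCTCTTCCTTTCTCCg
RPS29, chr14:49598691-49598720, minus strand: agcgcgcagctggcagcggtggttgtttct
RPS21, chr20:62387093-62387122, plus strand: ctagctgcttCCTTTCTCTCTCgcgcgcgg
RPLP1, chr15:69452808-69452837, plus strand: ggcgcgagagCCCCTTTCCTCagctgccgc
EEF2, chr19:3985444-3985473, minus strand: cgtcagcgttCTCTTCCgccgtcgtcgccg
EIF4B, chr12:53006446-53006475, plus strand: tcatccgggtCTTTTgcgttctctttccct
EIF2S3, chrX:24054946-24054975, plus strand: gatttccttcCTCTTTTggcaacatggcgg
RPS29 is printed without capitals because its listed start is not a C followed by such a run.

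A Y RNA that stood on opposite sides in different lines and a minor-spliceosome RNA from the low end are printed as DNA letters from GENCODE 29 transcripts. Capitals mark a run of T at the 3′ end, the letters at which RNA polymerase III stops.
RNY1: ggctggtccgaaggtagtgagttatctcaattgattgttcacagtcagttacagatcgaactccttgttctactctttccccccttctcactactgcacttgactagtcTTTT
RNU6ATAC: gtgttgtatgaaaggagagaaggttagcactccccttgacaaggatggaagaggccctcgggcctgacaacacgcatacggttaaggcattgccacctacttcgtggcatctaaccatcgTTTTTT
RNY1 has 113 bases, of which 36.3% are T, and RNU6ATAC has 126 bases, with 24.6% T.

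The Connexin43 libraries held 8959049 reads in bound RNA and 55040086 in total RNA. Protein-coding genes took 35.7% of the bound reads and 11.9% of the total reads. A difference is given throughout as log2(bound RPKM + 1) minus log2(total RPKM + 1), less its median of 0.18 over the 4253 genes, so that 0 means bound as much as the median gene. Adding 1 understates the differences of low genes. Standard errors (SE) cover counting of reads only, with a median of 0.083 over the genes. Genes were called higher or lower in bound RNA from a 2-fold difference. Of the 4253, 852 were higher (20.0%) and 1246 lower (29.3%), and the quartiles of the differences were -1.29 and 0.84. The split depended on the point taken as no difference. Centring on protein-coding genes gave 600 higher and 1441 lower, TMM scaling gave 712 and 2082, and DESeq2 size factors gave 696 and 2102. Under TMM and DESeq2 scaling the median gene stood at -0.94 and -0.98, so every difference below is one relative to the median gene. RPKM was at least 1 in both libraries for 2754 genes, in bound RNA alone for 1170 and in total RNA alone for 329. The 1170 passed the filter through their bound level, which by itself favours calls of higher, and the 329 through their total level. A value of 0 reads in total RNA was listed for 118 genes and in bound RNA for 51, for which no fold is given. All 118 are counted among the 852 and all 51 among the 1246. At the filter's edge, CFL2 had a mean of 1.0001 RPKM and TMEM123 one of 0.99985.

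**Figure D1:**
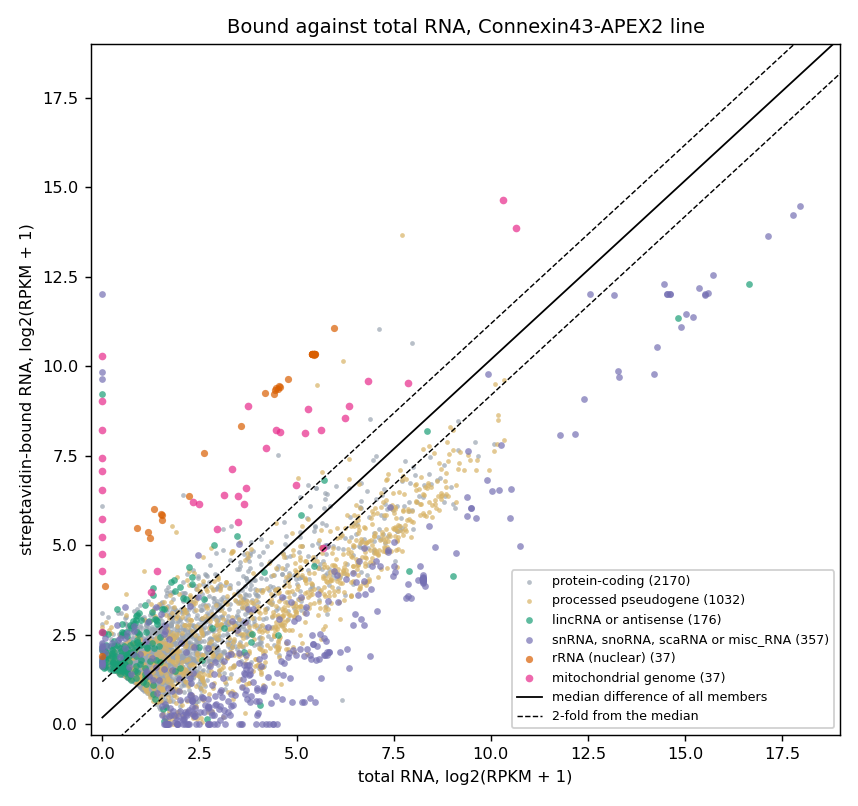
Bound against total RNA of the Connexin43-APEX2 line, 1 point per gene, as log2(RPKM + 1) on both axes, coloured by class (protein-coding, processed pseudogene, lincRNA or antisense, small nuclear, nucleolar and miscellaneous RNA, rRNA, mitochondrial genome). The solid line is the median difference and the dashed lines lie 2-fold from it. rRNA and mitochondrial genes lie above the lines and most small RNAs below them.

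RNAs of the mitochondrial genome were among the highest in bound RNA. The 2 mitochondrial rRNAs summed to 2874 RPKM in total RNA and 40251 RPKM in bound RNA, and mitochondrial RNAs together took 0.589% of total reads and 21.9% of bound reads. The 12S rRNA, MT-RNR1, had 1281 RPKM in total and 25305 RPKM in bound RNA, a difference of 4.12. The 16S rRNA, MT-RNR2, had 1593 and 14946 RPKM, a difference of 3.05. These values include the rRNA removal of the total library, and in the 2016 table they turned to -3.63 and -2.65. The mitochondrial mRNAs, which that removal is not designed to target, stood on the same side. All 13 were higher, with a median of 2.74 (2.56 over the 11 with at least 10 reads in both libraries), and their summed level was 712 RPKM in total and 6079 RPKM in bound RNA. MT-ND1, a subunit of complex I, had 12.4 RPKM in total and 474 RPKM in bound RNA, a difference of 4.97 (SE 0.046). MT-CYB of complex III had 36.4 and 282 RPKM (2.74), and MT-CO2 of complex IV had 235 and 744 RPKM (1.48). Of the 22 mitochondrial tRNAs, 21 were called higher, 9 of them with 0 reads in total RNA, and the 11 with at least 10 reads in both libraries had a median of 2.72. The exception was MT-TP, the proline tRNA, with 50.7 RPKM in total and 29.5 RPKM in bound RNA. MT-CO1, MT-ND2 and 9 of the tRNAs were listed at 0 in total RNA and have no fold. The control's total library lists both mitochondrial rRNAs, 11 of the 13 mRNAs and 20 of the 22 tRNAs at 0, so the control gives no fold for those. The H2B-APEX2 bound library lists all mitochondrial genes at 0 and gives no fold for any mitochondrial RNA. In APEX2-NES all 13 mitochondrial mRNAs were higher, with a median of 3.20, but 2 of them, MT-CO1 and MT-CO2, were listed at 0 in its total RNA. Of the mRNAs above 0 in the control's total RNA, MT-ND1 had only 0.00054 RPKM there. MT-CYB had 35.1 RPKM in total and 1743 RPKM in bound RNA of the control (4.93). Mitochondrial RNAs took 43.8% of the control's bound reads, without APEX2 in the cells. MTRNR2L12, a nuclear gene that resembles the 16S rRNA and can share its reads, had 139 and 2111 RPKM (3.73), and -2.49 in the 2016 table.

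Cytoplasmic rRNA was listed mainly as 5S, the small RNA of the large ribosomal subunit that RNA polymerase III makes. All 37 rRNA genes were higher in bound RNA, with a median of 4.69. Genes and copies of 5S summed to 878 RPKM in total and 26958 RPKM in bound RNA, a difference of 4.75. The other lines gave 3.69 (control), 5.70 (APEX2-NES) and 2.62 (H2B-APEX2) for the same sum. In the table of 2016 the sums lay the other way, with 505020 RPKM in total and 58592 RPKM in bound RNA. That table holds a bound run of the Connexin43 line and a total column that names no line, so its total sample is not known to be of the same cells. CTD-2328D6.1, a gene on chromosome X with no type listed and outside the naming rule, had the highest bound level, 1696 RPKM in total and 64051 RPKM in bound RNA (5.05).

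Abundant RNAs of RNA polymerase III and of the nucleus filled the total library and were lower in bound RNA. The 7SL RNA of the signal recognition particle, which takes ribosomes making secreted proteins to the ER, took 47.4% of total reads and 7.74% of bound reads. Its genes and copies summed to 1151942 RPKM in total and 64745 RPKM in bound RNA, a difference of -4.34. Copies share reads, so family sums are given; RN7SL2 alone was listed at 408758 RPKM in total and 0 in bound RNA, while RN7SL1 had 96872 and 7016 RPKM. The 7SK RNA, which holds back transcription elongation in the nucleus, took 16.7% and 4.24% of reads, with sums of 375397 and 32672 RPKM (-3.71). All 4 genes of the list of other nuclear small RNAs were lower. RPPH1, the RNA of ribonuclease P, had 103454 RPKM in total and 4976 RPKM in bound RNA (-4.56). RMRP, its mitochondrial RNA-processing relative, had 28987 and 2577 RPKM (-3.67), and TERC, the telomerase RNA, had 238 and 18.3 RPKM (-3.82). The control line gave -3.29 for 7SL, -3.28 for 7SK and -4.02 for RPPH1, and H2B-APEX2 gave -7.47, -5.03 and -7.26.

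Spliceosomal snRNAs, which form the machinery that removes introns, were lower in 26 of 29 listed genes, and all snRNA genes had a median of -3.71. U6 genes and copies summed to 5988 RPKM in total and 314 RPKM in bound RNA (-4.43), and RNU6-7 alone had 302 and 14.7 RPKM. U2 summed to 23483 and 1247 RPKM (-4.42), U4 to 8025 and 821 RPKM (-3.47), U5 to 494 and 72.6 RPKM (-2.93). U1 summed to 164262 and 38664 RPKM (-2.27). Of these 5 families U6 and U2 thus stood lowest and U1 highest. The minor-spliceosome RNA RNU6ATAC had 86.8 and 5.83 RPKM (-3.87). For U1 the control gave 0.03 and APEX2-NES -0.29, and for U6 they gave -1.43 and -2.64. The control gave -1.35 for U2, 0.06 for U4 and 1.03 for U5. Over the 29 listed genes its median was -0.36, with 7 higher and 10 lower. Total sums in the control were far lower, at 31991 RPKM for U1, 3249 for U2, 608 for U4, 29.9 for U5 and 948 for U6. Its bound sums, 51754, 2018, 1002, 99.0 and 555 RPKM, were less far from those of the Connexin43 line. Over 18 RNU6 copies with at least 1000 total reads the differences spanned only -4.59 to -4.16, and the reads may be shared among them.

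Y RNAs, small RNAs bound by the Ro60 protein, stood on opposite sides in different lines. RNY1 (chr7:148684228-148684340, hg19) had 86.0 RPKM in total and 17.8 RPKM in bound RNA of the Connexin43 line, a difference of -2.39 (SE 0.17). RNY3 had 130 and 22.4 RPKM, a difference of -2.67 (SE 0.16), and RNY4 had 54.8 and 9.92 RPKM (-2.54). RNY5 was listed at 11.2 RPKM in total and 0 in bound RNA. In the control line RNY1 had 3.06 RPKM in total and 36.2 RPKM in bound RNA, and RNY3 had 9.41 and 66.4 RPKM, so both were higher there. Their total RNA in the control line was far below that of the Connexin43 line, while the bound values were less far apart. Summed over Y RNAs the difference was -2.71 for Connexin43, -2.86 for H2B, -0.29 for NES and 1.96 without APEX2.

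Small nucleolar RNAs, which guide the modification of rRNA, were lower in 57 of 76 genes, with a median of -2.30, where 29.3% of all genes were lower. Of the 76, 19 were listed at 0 in a library, and the 30 with at least 10 reads in both had a median of -2.67. In the control line 34 of the 76 were lower and 9 higher, with a median of -0.78. SNORA53 had 313 RPKM in total and 13.5 RPKM in bound RNA (-4.62). U3, which acts in early processing of pre-rRNA, summed to 10941 and 4098 RPKM (-1.60). Small Cajal body RNAs were lower in 10 of 12 genes, with a median of -2.95, against 6 lower and a median of -1.05 in the control. The misc_RNA type, which holds 7SL, 7SK and Y RNA copies, was lower in 145 of 183 genes. The only type of small RNA gene with more genes higher than lower, besides rRNA and mitochondrial tRNA, was miRNA, with 15 of 19 higher, but 15 of the 19 were listed at 0 in a library.

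**Figure D2:**
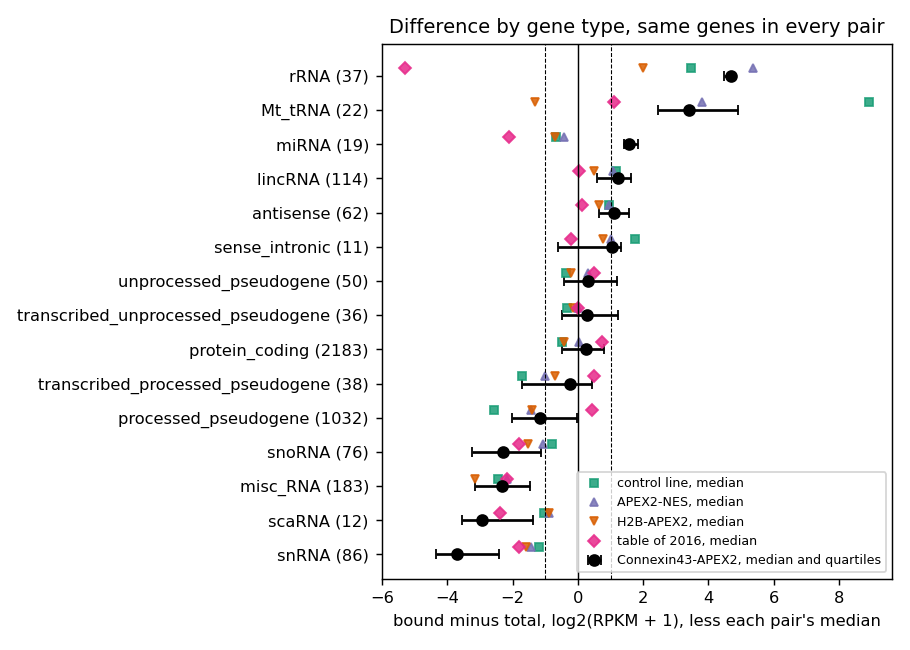
Median difference between bound and total RNA, log2 scale and centred on the median gene of each pair, for gene types with at least 10 genes. Bars with quartiles are the Connexin43-APEX2 line in 2017, and the markers are the other lines and the 2016 table over the same genes. snRNA, small Cajal body RNA, misc_RNA and snoRNA lie lowest and rRNA and mitochondrial tRNA highest in the 2017 Connexin43 pair, while rRNA stands at -5.31 in the 2016 table.

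Protein-coding genes had a median of 0.24, with 362 of 2183 higher (16.6%) and 299 lower (13.7%). Ribosomal protein mRNAs were the most uniform group of mRNAs at the low end. Of the 83 genes tested on both subunit lists, 74 were lower and 0 higher, with a median level of 151 RPKM in total and 46.9 RPKM in bound RNA and a median difference of -1.86. The large subunit had 40 of 48 lower (median -1.68) and the small subunit 34 of 35 (median -1.98). RPL39 (chrX:118920467-118925606, hg19), a small protein of the exit tunnel, had 538 RPKM in total and 64.2 RPKM in bound RNA, a difference of -3.23 (SE 0.021). RPS29 had 184 and 22.3 RPKM (-3.17), RPS21 had 517 and 70.2 RPKM (-3.05), and the stalk protein RPLP1 had 445 and 73.3 RPKM (-2.77). RPL41, the shortest ribosomal protein, had 572 and 201 RPKM (-1.69). The control line was lower too, at a median of -3.27 for the large and -3.70 for the small subunit. The direction did not hold in the 2016 table, where the medians were 0.55 and 0.69. RPL39 stood at -0.38, RPS29 at -0.09, RPS21 at 0.45 and RPLP1 at 0.38 there.

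The pyrimidine run at the listed start was found in 43 of the 64 ribosomal protein genes with a promoter entry (67.2%), against 1104 of all 27305 promoters (4.04%). The search took the sense strand only, since the run is read from the transcript, and asked for a C at the listed start followed by at least 4 letters that were C or T. Ribosomal protein mRNAs with the run had a median difference of -1.86 and those without it -1.85, and 41 of 43 and 16 of 21 were lower. On the translation list the medians were -0.21 for 14 genes with the run and 0.19 for 14 without it. Among other protein-coding genes 129 of 1550 carried it (8.32%), with a median of 0.18 against 0.33. The listed start may not be the one used in these cells.

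Nuclear-encoded mRNAs of the respiratory chain were lower in 40 of 70 genes and higher in 1, with a median of -1.21. UQCRQ of complex III had 52.7 RPKM in total and 8.87 RPKM in bound RNA (-2.63). NDUFB11 of complex I had 125 and 27.2 RPKM (-2.35), and COX7C of complex IV had 63.8 and 15.9 RPKM (-2.12). The 1 higher gene, NDUFS7, was listed at 0 in total RNA. This list thus lay opposite to the mRNAs of the same complexes made inside mitochondria. Its median was -2.52 in the control and 0.08 in the 2016 table. Mitochondrial ribosomal proteins, which are also encoded in the nucleus, had 2 of 36 higher and 2 lower, with a median of -0.19.

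Other mRNAs with low values follow. TXN, the cytosolic thioredoxin, had 111 RPKM in total and 16.9 RPKM in bound RNA (-2.84, SE 0.053). PRDX4, a peroxiredoxin of the ER, had 74.4 and 11.2 RPKM (-2.81), and SSR4, a subunit of the translocon-associated complex of the ER, had 22.5 and 2.84 RPKM (-2.80). GAPDH, a glycolytic enzyme, had 309 and 101 RPKM (-1.79), but 1.36 in the 2016 table. Of the 13 glycolysis genes GAPDH and LDHB were lower and 0 higher, with a median of 0.00. TPT1 and BTF3, of the translation list, had 72.0 and 28.8 RPKM (-1.48) and 77.0 and 21.2 RPKM (-2.00).

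Processed pseudogenes, copies of mRNAs reinserted in the genome, were mostly within 2-fold or lower. Of 1032, 90 were higher and 556 lower, with a median of -1.17, which turned to 0.43 in the 2016 table. The 245 that carry a ribosomal protein's name had 198 lower and 1 higher, with a median of -1.92 (0.29 in the 2016 table), beside -1.86 for the genes themselves. The other 787 had 358 lower and 89 higher, with a median of -0.84 (0.49 in the 2016 table). Reads of an mRNA and of its copies cannot be told apart reliably in these counts.

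The nuclear mRNAs at the high end included a linker histone and transcription factors. HIST1H1E had 22.1 RPKM in total and 183 RPKM in bound RNA (2.80, SE 0.043). JUND had 0.104 and 6.95 RPKM (2.66) and JUN 0.888 and 7.49 RPKM (1.99); both are subunits of AP-1. ZNF703, a zinc finger regulator, had 0.325 and 7.61 RPKM (2.52). RSPO1, which encodes a secreted activator of Wnt signalling, had 0.386 and 7.56 RPKM (2.44), but -0.07 in the 2016 table. Further mRNAs, named after their values were seen, stood just below. FLNA (chrX:153576892-153603006, hg19), the actin crosslinker filamin A, had 7.62 and 42.9 RPKM (2.17), KHSRP, an RNA-binding protein, 0.951 and 9.05 RPKM (2.18), AGRN, the matrix protein agrin, 0.743 and 7.85 RPKM (2.16), and FASN, the fatty acid synthase, 0.849 and 8.27 RPKM (2.14). FLNA gave 1.03 in the control line, 2.22 with the NES fusion, -0.68 with the H2B fusion and 3.57 in the 2016 table. AGRN gave 0.06 in the control. RSPO1 gave 3.78 there, ZNF703 1.73, JUN 1.44 and JUND 1.27, so these 4 were also at least 2-fold higher without APEX2. HIST1H1E was listed at 0 in the control's total RNA and has no fold there. Those of the genes above with less than 1 RPKM in total RNA, among them JUND and ZNF703, passed the filter through their bound level.

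The mRNA of the bait itself was scarce. GJA1 (chr6:121756838-121770873, hg19) had 0.243 RPKM from 57 reads in total RNA and 1.34 RPKM from 150 reads in bound RNA, a difference of 0.73. Its mean of 0.793 RPKM was the highest of the 25 gap junction genes listed, and 0 of the 25 passed the filter of 1 RPKM. In the control line, which has no APEX2, GJA1 had 0.194 and 0.952 RPKM, a difference of 0.05, and the NES and H2B lines gave 0.70 and -0.51. Whether reads of the Connexin43 transgene count towards GJA1 was not stated.

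Of 10 tested genes of cell junctions and adhesion, 3 were higher and 0 lower, with a median of 0.87, where 16.6% of all protein-coding genes were higher, so the count is near the background. ACTN4, an alpha-actinin that bundles actin, had 2.19 RPKM in total and 11.6 RPKM in bound RNA (1.80), TLN1, the integrin-linking talin, 1.94 and 7.37 RPKM (1.32), and VCL, vinculin, 1.60 and 5.29 RPKM (1.09). The control line without APEX2 gave 1.91, 1.61 and 1.78 for the same genes and 0.83 for the list, so differences of like size were seen without APEX2. PDZD11, a junction-linked adaptor, had 4.88 and 2.81 RPKM (-0.81). The plasma membrane list had 3 of 15 higher and 1 lower, with a median of 0.39 that falls to -0.28 under TMM scaling, where the median gene stands at -0.94. PTPRF, a receptor phosphatase, had 0.739 and 6.02 RPKM (1.83), and the amino acid transporters SLC7A5 and SLC1A5 had 0.361 and 3.71 RPKM (1.61) and 1.74 and 6.73 RPKM (1.31). ATP1B3, the sodium pump subunit, had 6.26 and 2.59 RPKM (-1.20). The control line gave a list median of -1.20 and 0.12 for PTPRF; the difference between the lines was not tested. These 15 genes are few, and their share higher, at 20%, equalled that of all genes.

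The ER and secretory list had 2 of 38 higher (5.26%) and 6 lower (15.8%), with a median of -0.03. Among all protein-coding genes 16.6% were higher and 13.7% lower, with a median of 0.24. In the control line 3 of the 38 were higher and 12 lower, with a median of -0.32. HSPA5, the ER chaperone BiP, had 1.04 RPKM in total and 5.39 RPKM in bound RNA (1.46), and P4HB, the protein disulfide isomerase, had 5.65 and 14.7 RPKM (1.06). CALR, calreticulin, had 13.1 and 25.5 RPKM (0.73). The lower genes included SSR4, given above, and SEC61G, a subunit of the translocation channel, at 9.27 and 2.07 RPKM (-1.93). The list as a whole thus lay near the median gene and below the median protein-coding gene.

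Genes of mRNA-binding hnRNP proteins were higher in 7 of 21 and lower in 0, with a median of 0.81, against 2.31 in the 2016 table, where 20 of the 21 were higher. PCBP1 had 0.664 RPKM in total and 5.13 RPKM in bound RNA (1.70), HNRNPA0 0.354 and 3.85 RPKM (1.66), and HNRNPA1, which can share reads with its near-copy HNRNPA1L2, 51.9 and 76.6 RPKM (0.37). The 7 SR protein genes, splicing factors, had 0 higher and 0 lower, with a median of 0.22. EEF2 (chr19:3976054-3985467, hg19), which moves the ribosome along the mRNA, had 118 RPKM in total and 370 RPKM in bound RNA (1.46, SE 0.01), EIF4G1, the scaffold of the cap-binding complex, 1.05 and 6.62 RPKM (1.71), and EIF4B 5.00 and 14.2 RPKM (1.15). EEF1A1, which brings tRNA to the ribosome, had 567 and 351 RPKM (-0.88), and over the list of translation factors 5 of 39 were higher and 6 lower, near the 16.6% and 13.7% of all protein-coding genes. EEF2 stood at -0.95 in the control and 3.87 in the 2016 table. Histone genes had 10 of 62 higher and 2 lower; HIST1H4C, with 135 and 36.4 RPKM (-2.05), was the lowest, and near-identical histone copies can share reads.

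Further lists are given by their counts, beside 16.6% higher and 13.7% lower among all protein-coding genes. Stress-response genes had 4 of 9 higher and 0 lower, among them ATF4, the main transcription factor of the integrated stress response, with 4.08 RPKM in total and 18.9 RPKM in bound RNA (1.79). In the control line 5 of these 9 were higher and 3 lower, and ATF4 gave 1.81. Immediate early genes had JUN and JUND higher and CYR61 and DUSP1 at 0.80 and 0.66. The list median was 1.39, against 1.35 in the control. Zinc finger genes had 5 of 13 tested genes higher out of 526 listed, since most lay below the filter. Median levels were 0.537 RPKM in total and 4.51 RPKM in bound RNA for immediate early genes, and 0.600 and 2.62 RPKM for zinc finger genes. Many genes of both lists thus passed the filter through their bound level, which by itself favours calls of higher. The heat shock genes HSPA1A and HSPA1B, which share reads, had 1.53 and 8.39 RPKM (1.71) and 1.65 and 8.70 RPKM (1.69). Both were high in the control too, at 1.93 and 1.83. Tubulin and actin cytoskeleton lists had 2 of 11 and 3 of 28 higher and 0 lower, with medians of 0.58 and 0.41 that fall to -0.05 and -0.35 under TMM scaling. Proteasome genes had 2 of 24 higher and 4 lower, with a median of -0.33. The shares higher of the tubulin, actin and proteasome lists, 18.2%, 10.7% and 8.33%, were near or below the background. Control medians were 0.57 for tubulin, 0.14 for actin, -1.26 for proteasome and 0.23 for zinc finger genes.

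**Figure D3:**
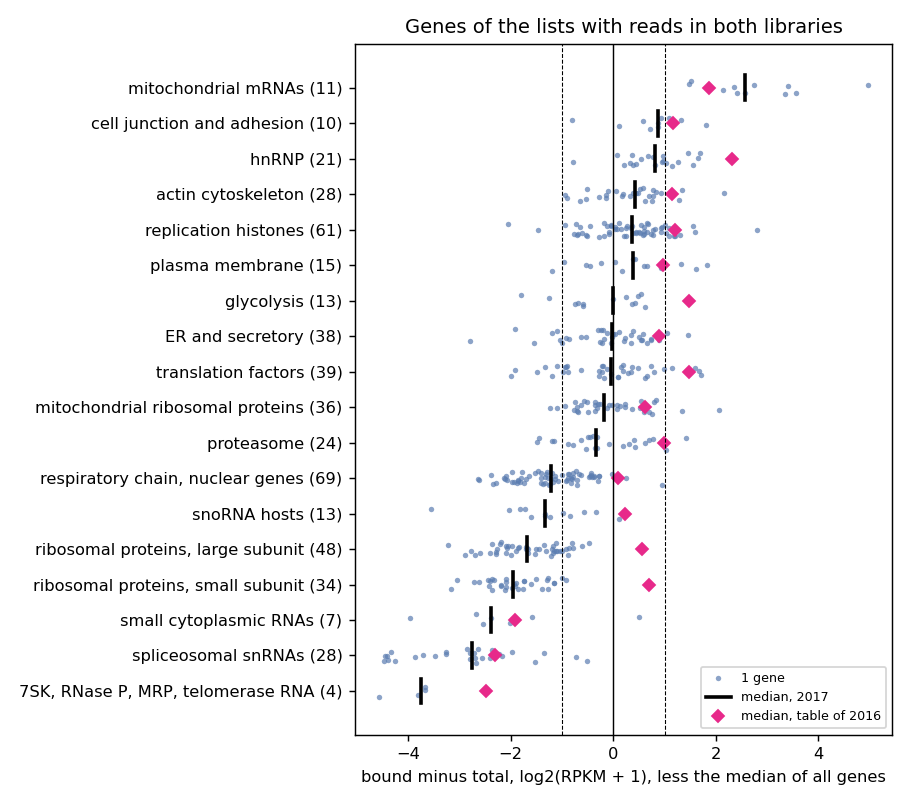
Differences between bound and total RNA, log2 scale and centred on the median gene, for the members of 18 gene lists with reads in both Connexin43-APEX2 libraries. Points are genes, bars the 2017 medians and diamonds the 2016 medians. Mitochondrial mRNAs lie highest, ribosomal protein and respiratory chain mRNAs below 0 in 2017 and above 0 in 2016.

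Long noncoding RNAs that passed the filter mostly stood above the median gene. Of 114 lincRNA genes 69 were higher and 10 lower, with a median of 1.22, and of 62 antisense genes 38 were higher and 4 lower, with a median of 1.10. Median levels were 0.770 RPKM in total and 3.38 RPKM in bound RNA for lincRNA, and 0.634 and 2.87 RPKM for antisense genes. Many thus passed the filter on the mean through their bound level, which by itself favours calls of higher. MALAT1 (chr11:65265233-65271080, hg19), a nuclear speckle RNA, had 10.0 RPKM in total and 37.5 RPKM in bound RNA (1.62, SE 0.021). LINC00657, also known as NORAD, which binds PUMILIO proteins in the cytoplasm, had 0.801 and 6.01 RPKM (1.78), and UGDH-AS1 had 3.67 and 19.8 RPKM (1.97). LINC00355 and LINC00504 had 1.43 and 7.74 RPKM (1.66) and 2.99 and 13.2 RPKM (1.65). In the control line without APEX2 the lincRNA and antisense medians over the same genes were 1.16 and 0.94. UGDH-AS1 gave 3.16 there, LINC00504 3.05, LINC00355 2.65, MALAT1 1.98 and LINC00657 1.14. Differences of like size were thus seen without APEX2. In the 2016 table the lincRNA and antisense medians were 0.03 and 0.12. Antisense reads may hold reads of the gene on the other strand, since it was not stated whether the counting used strand. LINC00910 was the lowest lincRNA, with 519 and 16.4 RPKM (-5.08). In the control it had 70.6 RPKM in total and 19.1 RPKM in bound RNA (-2.49), so the lines differed mainly in total RNA. The cause was not tested.

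Host genes of snoRNAs, whose spliced RNAs mostly carry short reading frames and a pyrimidine start like ribosomal protein mRNAs, lay on the other side. Of 13 tested, 8 were lower and 0 higher, with a median of -1.32, against 0.22 in the 2016 table. SNHG3 had 64.0 RPKM in total and 5.25 RPKM in bound RNA (-3.56), and SNHG5 had 73.4 and 19.7 RPKM (-2.03). Reads of the snoRNAs in their introns may be counted with some of these genes.

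Markers of other cells moved with the libraries and their part in the results was not tested. In bulk samples fewer cells of a type and less RNA per cell cannot be told apart. The 25 fibroblast-like genes summed to 115 RPKM in total and 178 RPKM in bound RNA of the Connexin43 line, with 1 of the 25 at 0 in bound RNA. The same sum was 78.5 and 495 RPKM in the control, 61.2 and 361 RPKM in APEX2-NES and 56.0 and 29.5 RPKM in H2B-APEX2. Of the 23 tested in the Connexin43 line, 2 were higher and 1 lower, with a median of 0.66. COL1A2, a collagen chain, had 2.50 and 6.38 RPKM (0.89). The 9 markers of HEK293 cells summed to 29.1 RPKM in total and 34.3 RPKM in bound RNA, with 2 at 0 in the latter, and the 16 markers of fibroblasts, blood, endothelium and liver to 15.5 and 17.6 RPKM, with 7 and 3 at 0.

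Differences over the 2182 protein-coding genes with a listed transcript went with the length of the transcript. In 5 equal groups from the shortest, with median lengths from 1042 to 5688 bases, the median difference was -0.47, -0.00, 0.22, 0.50 and 0.57. Without ribosomal protein and respiratory chain genes it ran from -0.31 to 0.58. Genes called higher had a median transcript of 2888 bases, 56.6% GC and 20.9% U, and genes called lower one of 1529 bases, 48.8% GC and 26.2% U. By U content, from 17.8% to 30.2%, the medians were 0.71, 0.30, 0.33, -0.01 and -0.03. The mRNAs with the least U, the base that 4-thiouridine replaces, thus stood highest in this line. By mean level they were 0.42, 0.47, 0.32, 0.14 and -0.73, and only the most abundant group stood well below the rest. Leaving out ribosomal protein and respiratory chain genes moved that group to -0.27. Across genes, Pearson's r with the difference was 0.29 for length, 0.15 for GC content, -0.23 for U content and -0.31 for log2 of the mean level, and Spearman's rho was 0.34, 0.18, -0.26 and -0.30. Genes are not independent replicates, and the same RPKM values and gene lengths enter both sides of these relations.

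**Figure D4:**
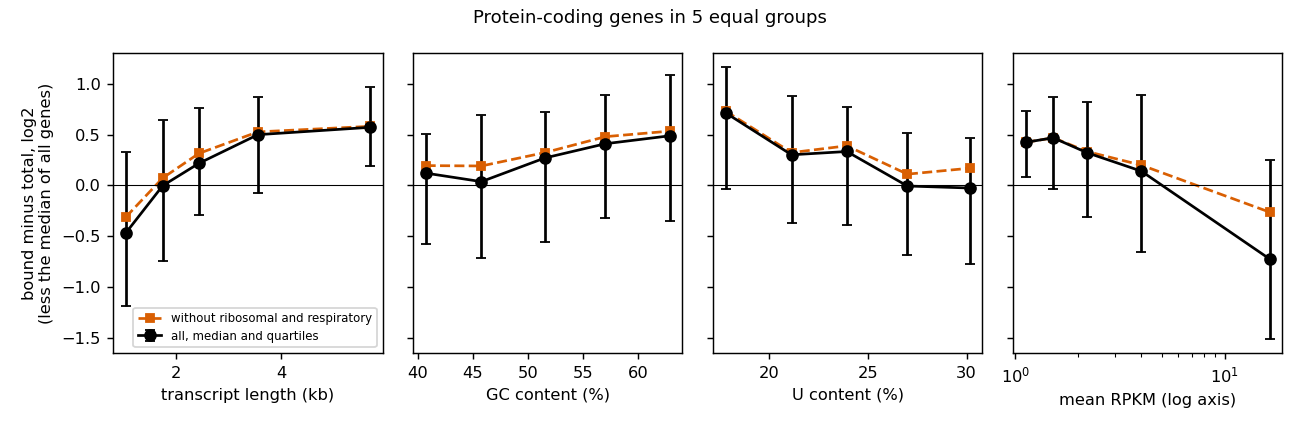
Median and quartiles of the difference between bound and total RNA (log2 scale, centred on the median gene) for protein-coding genes of the Connexin43-APEX2 line in 5 equal groups by transcript length, GC content, U content and mean RPKM. Squares on a dashed line leave out ribosomal protein and respiratory chain genes. The shortest group lies at -0.47 and the longest at 0.57.

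The footprints, RNA stretches protected by crosslinked proteins in the same line, form another library, which took no part in choosing or calling the genes. The Connexin43 sheet held 270633 crosslinked reads in 23104 clusters and the control sheet 185487 in 20850, and 2144 of the protein-coding genes are in it. Genes called higher in bound RNA had a cluster in 265 of 354 cases (74.9%), genes within 2-fold in 1071 of 1496 (71.6%) and genes called lower in 181 of 294 (61.6%). The median reads per gene were 50.5, 17 and 7, and per kilobase of transcript 16.4, 6.71 and 4.22. In the control line the medians for the same genes were 17.5, 11 and 5. In the group of highest bound level, of 3 equal groups, the medians were 66 for genes called higher, 26 for those within 2-fold and 13.5 for those called lower, against 30, 19 and 12 in the control. Bound levels within that group were not alike, with medians of 7.29, 6.77 and 18.4 RPKM. In the middle group the medians were 40, 20 and 3.5 (control 11, 11 and 2), and in the lowest 17, 11 and 0 (control 8, 8 and 0). In the control, genes called higher thus had more reads than those within 2-fold at the highest bound level and equal medians in the other groups. Over all these genes, 3′ untranslated regions held 25.9% of the reads of genes called higher and 25.8% for genes called lower. Without ribosomal protein, respiratory chain and mitochondrial genes they held 37.7% and 22.3%, and coding sequence held 50.2% and 58.0%. Genes within 2-fold then had 41.9% in 3′ untranslated regions, more than genes called higher. In the control line the 3′ shares after this exclusion were 41.9% for genes called higher and 28.2% for genes called lower.

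Single genes showed the same spread. EEF2 had 2112 footprint reads in 6 clusters (599 in the control), SLC1A5 had 879 (465), KHSRP 743 in 20 clusters (104), SLC7A5 732 (141) and HNRNPA0 689 (217). JUND had 156 and 0 in the control, and the junction genes ACTN4, VCL and TLN1 had 170, 50 and 41 against 134, 14 and 47. At the low end RPL39 had 0 reads and 19 in the control, RPS21 had 6 and 12, and RPLP1 had 93 and 137. FLNA and RSPO1 had no cluster in either line although both were high in bound RNA. A gene at 0 here is one in which no cluster was called.

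**Figure D5:**
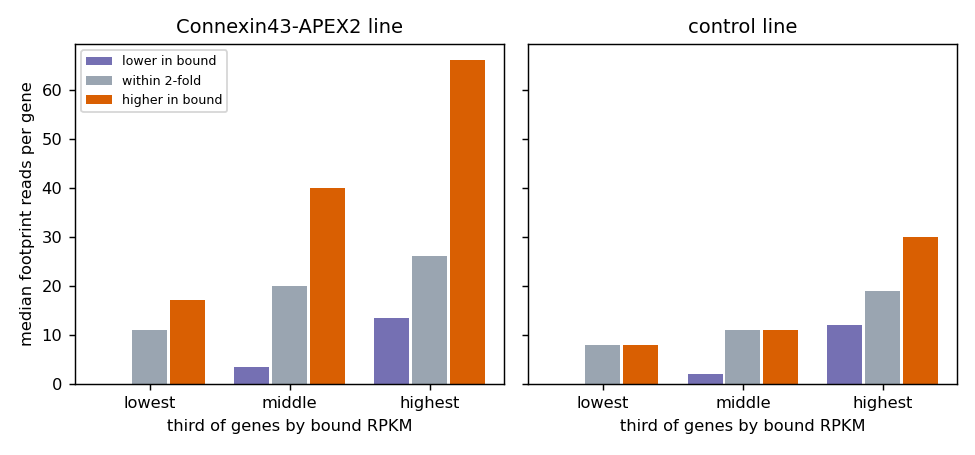
Median crosslinked footprint reads per protein-coding gene, in 3 equal groups by bound RPKM and by whether the gene was lower, within 2-fold or higher in bound than in total RNA, for the Connexin43-APEX2 and the control line. In each group of the Connexin43 line the genes called higher have the most reads, from 17 at the lowest to 66 at the highest bound level.

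The other lines had their own total and bound libraries, so their differences share no sample with those of the Connexin43 line. Across protein-coding genes tested in both, Pearson's r with the Connexin43 difference was 0.79 in APEX2-NES (2035 genes), 0.76 in the control (2089) and 0.55 in H2B-APEX2 (1842), as a description in which length and composition are common to both sides. Of 852 genes higher in the Connexin43 line 741 were tested in the control, and 399 of these (53.8%, and 58.2% of the control's list among shared genes) were higher there. Among all genes tested in both, 17.3% were higher in the control, and 20.1% of all its own genes. Of 1246 lower genes 1181 were tested and 1084 (91.8%, and 57.4% of the control's list) were lower there, against 47.7% of all genes tested in both and 33.2% of all its own genes. For APEX2-NES the shares were 68.3% and 88.2%, against 20.0% and 35.8% of all genes tested in both (22.9% and 29.2% of its own genes). For H2B-APEX2 they were 46.8% and 85.6%, against 18.8% and 44.5% (18.7% and 33.2% of its own genes). Most of what was lower in bound RNA of the Connexin43 line was thus also lower in RNA captured from cells without APEX2. The 2016 table, with another total sample, had an r of 0.31 over 2127 genes. In it 374 of the 759 higher genes tested were higher (49.3%), against 32.1% of all genes tested in both (16.3% of its own genes). Of the 1076 lower genes tested, 198 were lower (18.4%), against 6.95% of those tested in both (3.69% of its own genes), and 160 were higher.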

How the data were processed

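Each of 4 lines gave a total, a bound and a footprint library, 12 samples in 12 groups of 1. Build hg19 was used with TopHat and bcl2fastq 2.17.1, per the submitters' processing notes. The counter, its annotation, the cluster caller and TopHat's version are not given in the sources used here. Both gene tables list deposited expected counts, where 0.001 stands for 0, and RPKM values that the authors scaled to gene length and library size. Cluster counts and crosslinked read counts per gene were deposited in the footprint sheets, with long and short footprints pooled. All per-sample columns were matched to samples by name. The 2016 column named for Connexin43 was taken as a second bound run of that sample, and the 2016 total column names no line. Some genes (5074) have no type listed.

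Genes had to reach 1 RPKM on average over both libraries, and log2(RPKM + 1) of total RNA was subtracted from that of bound RNA and centred on the median. With 1 sample a group, genes were called at a 2-fold difference, without a test. Counting SEs were computed with the delta method on expected counts. Wilson 95% intervals of the read shares given were at most 0.063 percentage points wide and cover counting error only. Alternatives were other pseudocounts, filters and centrings, the 2016 table, removal of a GC trend, and TMM (edgeR 4.0.16) or DESeq2 1.42.0 size factors on expected counts rounded to whole numbers; edgeR and DESeq2 were used for scaling only. The procedure was checked on simulated counts.

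The genes and the 32 gene lists were chosen with earlier results of these data known. Genes were named by rule: GJA1, 12 protein-coding genes at either end with at least 50 reads in each library, the 5 highest and 5 lowest of the lincRNA and antisense genes and of the snoRNA, snRNA and misc_RNA genes, the 10 with the highest RPKM in each library, and the 4 most abundant of each list, without pseudogenes and clone names. Other genes were named after their values were seen, as the members behind a count or the ends of a list. Transcript length and composition come from GENCODE 29, joined by Ensembl identifier, and start windows from RefSeq promoters on GRCh38.p14. Of the protein-coding genes, 1658 had a promoter entry. Gene coordinates are those deposited for hg19, counted from 1. Python 3.11.15, numpy 2.4.6, pandas 2.3.3, scipy 1.17.1, statsmodels 0.14.6, matplotlib 3.10.9 and R 4.3.3 were used. Some genes and sequences are not reported here.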

Additional observations from a re-analysis of the deposited data

Results flagged for a closer look

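The genes here are some of those that stood at least 2-fold on opposite sides of the median gene in the Connexin43-APEX2 and control lines, each with 1 bound and 1 total library. In all, 30 of the 741 higher and 34 of the 1181 lower genes of the Connexin43 line tested in the control did so. The difference between the lines was not tested. RNY1 stood at -2.39 in the Connexin43 line and 2.53 in the control. RNY3 stood at -2.67 and 2.03. ZNF428, a zinc finger gene, stood at 1.71 in the Connexin43 line, with 1.12 RPKM in total and 6.89 RPKM in bound RNA, and at -1.18 in the control, with 5.91 and 3.84 RPKM.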

How the results depend on the processing

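No paired analysis was possible because each group has 1 sample and no replicate numbers. For the same reason no library could be left out. Of the 852 genes higher in bound RNA, the count became 1316 with a pseudocount of 0.1, 181 with one of 5, 481 at a mean RPKM of at least 5 and 1344 in the 2016 pair. The 1246 lower genes became 375 at a mean RPKM of at least 5, 2082 with TMM, 2102 with DESeq2 size factors and 304 in the 2016 pair. The 362 higher protein-coding genes became 206 centred on protein-coding genes, 716 and 52 with pseudocounts of 0.1 and 5, 235 at RPKM of at least 5, 546 at equal protein-coding totals, 910 in the 2016 pair, 742 with 2016 bound against 2017 total RNA and 214 without the GC trend. The 299 lower ones became 138 with a pseudocount of 5, 28 at RPKM of at least 5, 851 with TMM, 866 with DESeq2, 15 in the 2016 pair and 535 with 2016 bound against 2017 total RNA. Of values at least 2-fold from the median gene, those that changed sign did so in the 2016 pair, and the cause was not tested. Medians became 0.43 for processed pseudogenes, -5.31 for rRNA, -2.10 for miRNA, -0.20 for sense intronic genes, 0.55 and 0.69 for ribosomal proteins of the large and small subunit, 0.077 for the respiratory chain and 0.22 for snoRNA hosts. Of genes higher in 2017, the differences became -3.63 for MT-RNR1, -2.65 for MT-RNR2, -2.18 for MTRNR2L1, -2.44 for MTRNR2L8, -2.49 for MTRNR2L12 and -0.065 for RSPO1. Of genes lower in 2017, they became 0.71 for ZFAS1, 1.91 for LDHB, 0.22 for PSMB3, 1.13 for PSMB4, 0.94 for TPT1, 1.06 for SNHG6, 1.13 for SNHG5, 0.14 for TIMP1, 1.36 for GAPDH, 0.48 for PRDX4 and 0.57 for TXN. Ribosomal proteins became 0.56 for RPL41, 0.75 for RPL34, 1.09 for RPLP0, 0.38 for RPLP1, 0.90 for RPS2, 0.94 for RPS12, 0.97 for RPS18, 0.45 for RPS21 and 0.55 for RPS27A, and respiratory genes 0.25 for COX8A, 0.085 for COX6B1, 0.56 for COX7C, 0.12 for NDUFB11 and 0.0093 for UQCRQ. Genes of few reads are limited by depth, since 10% of genes had a counting SE above 0.223.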
